A study of Mus musculus with 18 samples.

Results

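The pancreas makes most of the enzymes that digest food in the gut, and 10 genes for such enzymes were examined for differences in RNA level between inbred mice of the strains DBA/2J and C57BL/6J. The tissues were whole brain, kidney and liver. The list held the amylases Amy1 and Amy2, the trypsinogen Prss2, the chymotrypsinogen Ctrb1, the elastases Cela1 and Cela2a, the procarboxypeptidases Cpa1 and Cpb1, the bile salt-activated lipase Cel and the pancreatic lipase Pnlip. Of these 10 genes, 9 were named in the platform annotation, each by 1 spot, among 15095 named genes and 20218 features in all. No spot was named Pnlip, so it was not analysed here. The genes were chosen by name, after low liver ratios of the amylases had been seen. Their liver ratios, which led to the choice, are therefore given as a description without a test.

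The strains were set against each other on 18 two-colour glass arrays, 6 for each tissue, with pooled DBA/2J RNA in one channel and pooled C57BL/6J RNA in the other. Pools for brain and kidney came from 10 mice and those for liver from 9, and a tissue's arrays repeat a single pair of pools. The labels used here state neither age nor sex. Since the pools were not replicated, p-values measure the spread between hybridisations and not between mice, and the number of arrays limits the precision. No allele or treatment is given for either strain. A negative log2 ratio means a lower level in DBA/2J than in C57BL/6J. The labels make this direction likely without stating it. DBA/2J RNA is named first in them, and Glo1, the glyoxalase gene that is known to be duplicated in DBA/2J, had ratios of 0.65 ± 0.14, 0.83 ± 0.34 and 0.92 ± 0.16 for brain, kidney and liver (SD, n = 6). All arrays ran in 1 dye orientation, so a dye effect and a strain effect of a spot cannot be told apart. Where a gene had exactly 2 spots (902 genes), these hardly correlated (r across genes, which are not independent, of 0.0768, 0.101 and 0.0319 for brain, kidney and liver). What a single spot measures, and with it each gene named here, is therefore uncertain. Brain array 1 and liver array 2 stood apart, with a mean correlation with the other arrays of their tissue of 0.239 (tissue mean 0.381) and 0.348 (tissue mean 0.472). Tissue identity was clear from the spot intensities. The median percentile of the 11 liver markers measured was 99.5 in liver, against 19.3 in brain and 46.4 in kidney. That of 10 kidney markers was 98.2 in kidney, and that of 11 brain markers was 91.9 in brain.

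As background, acinar cells of the pancreas pack inactive enzyme precursors, the zymogens, into granules and release them on feeding. Trypsinogens are cleaved to trypsin in the gut, and trypsin then activates the chymotrypsinogens, proelastases and procarboxypeptidases. Amylases cut starch and are made in an active form. In mice Amy1 is the amylase of the salivary glands and is also transcribed in liver, from alternative start sites, while the Amy2 genes serve the pancreas. The acinar genes share an activator, the PTF1 complex, which binds an E-box followed by a TC-box. The question asked of these data was whether Amy1 and Amy2 differed between the strains in liver along with other pancreatic enzymes, as RNA of pancreas carried along with the dissected liver could give, or by themselves.

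The start regions of the genes with the lowest liver ratios, and of Cela1 as a gene whose liver ratio lay near 0, are shown so that the amylase starts can be set against those of zymogen genes. Each sequence runs 5′ to 3′ on the strand of the gene and covers the 250 bases before the annotated start, from RefSeq on assembly GRCm38.p6. Capitals mark matches on either strand to TATAAA (the TATA box), CACCTG (an E-box form of PTF1 sites) or TTTCCC (the TC-box of PTF1 sites). RefSeq gives 2 starts for Amy1. The platform's Amy2 could not be tied to 1 gene, because 5 RefSeq genes (Amy2b, Amy2a5, Amy2a4, Amy2a3 and Amy2a2) carry Amy2 as a former symbol, and Amy2a5 is printed as an example of them.
Amy1 first start, chr3:113577751-113578000, minus strand: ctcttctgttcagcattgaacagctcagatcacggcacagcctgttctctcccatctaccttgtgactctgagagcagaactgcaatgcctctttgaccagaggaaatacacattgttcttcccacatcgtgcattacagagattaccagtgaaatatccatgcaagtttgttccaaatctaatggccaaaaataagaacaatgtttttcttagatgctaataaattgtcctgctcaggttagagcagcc
Amy1 second start, chr3:113574763-113575012, minus strand: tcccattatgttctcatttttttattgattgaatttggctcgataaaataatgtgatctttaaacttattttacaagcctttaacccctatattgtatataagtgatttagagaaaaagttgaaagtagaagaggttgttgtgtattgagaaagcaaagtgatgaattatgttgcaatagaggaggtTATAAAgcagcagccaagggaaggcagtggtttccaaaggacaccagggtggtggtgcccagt
Amy2a5, chr3:113258700-113258949, minus strand: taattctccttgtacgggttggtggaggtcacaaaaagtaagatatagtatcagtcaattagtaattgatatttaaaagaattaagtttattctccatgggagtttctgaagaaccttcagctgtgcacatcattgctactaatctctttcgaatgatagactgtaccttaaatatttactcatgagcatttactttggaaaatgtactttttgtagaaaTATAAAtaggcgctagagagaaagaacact
Prss2, chr6:41521526-41521775, plus strand: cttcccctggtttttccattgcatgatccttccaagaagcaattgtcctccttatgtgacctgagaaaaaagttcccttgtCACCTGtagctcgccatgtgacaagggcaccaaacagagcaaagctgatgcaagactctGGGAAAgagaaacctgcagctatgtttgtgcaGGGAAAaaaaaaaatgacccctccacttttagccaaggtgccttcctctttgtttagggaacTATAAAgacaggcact
Cpb1, chr3:20275734-20275983, minus strand: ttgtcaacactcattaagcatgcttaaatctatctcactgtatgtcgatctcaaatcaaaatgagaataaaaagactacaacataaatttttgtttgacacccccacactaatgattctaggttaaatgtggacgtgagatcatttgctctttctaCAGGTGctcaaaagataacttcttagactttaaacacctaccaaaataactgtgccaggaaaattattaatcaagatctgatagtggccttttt
Cela1, chr15:100687921-100688170, minus strand: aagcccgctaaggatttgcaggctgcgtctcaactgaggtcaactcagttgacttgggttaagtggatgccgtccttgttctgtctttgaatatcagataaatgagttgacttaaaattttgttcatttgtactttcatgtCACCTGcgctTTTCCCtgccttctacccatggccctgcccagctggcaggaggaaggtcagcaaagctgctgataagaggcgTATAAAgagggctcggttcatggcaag

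Positions are counted from the start base as 0. Amy2a5 held TATAAA at -30, the second Amy1 start held it at -63, and the first Amy1 start held none of the 3 motifs. Prss2 held TATAAA at -16, CACCTG at -169 and TTTCCC in 2 places. Cpb1 held only CACCTG, at -94. Cela1 held all 3, with TATAAA at -27, CACCTG at -109 and TTTCCC at -99. None of these matches overlapped another. The windows of the other candidates for Amy2 differed from that of Amy2a5. Amy2b held TATAAA at -26 and CACCTG at -132, while the windows of Amy2a4, Amy2a3 and Amy2a2 held none of the 3 motifs. Among 32851 windows of the same length before RefSeq gene starts, 12.4% held TATAAA, 17.2% CACCTG and 21.9% TTTCCC, so single matches are common. The windows of Amy2a4, Amy2a3 and Amy2a2 were identical, and Amy2a5 shared a run of 112 bases with them. This run ends their windows and begins that of Amy2a5, so their starts are annotated further upstream. The stretch that holds TATAAA in Amy2a5 would lie past their annotated starts, where no search was made. Their lack of a match is therefore not shown to be a difference between promoters. The Amy1 windows shared no run of more than 10 bases with any Amy2 window. A match is a description of letters and not a site.

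In liver, both amylases and 2 zymogen genes had the lowest mean ratios of the 9 genes, with lower levels in DBA/2J. Amy2 was 3.21-fold lower, Amy1 1.98-fold, Prss2 1.91-fold and Cpb1 1.48-fold. The 4 genes were past the threshold of the fit over all features (limma adjusted p of 0.05), where 22.9% of all features were past it, 12.1% in this direction. The count was 5 without loess and 3 without dim features, where 8 of the genes were left. It describes the values that chose the genes and nothing is read from it. The median log2 ratio of the 9 genes was -0.22.

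Amy2, the pancreatic amylase, had liver log2 ratios of -1.92, -0.81, -1.51, -2.21, -1.53 and -2.11 on arrays 1 to 6. All 6 were well below 0, with array 2 the nearest to it, and the mean was -1.68 ± 0.52 (SD, n = 6). It was the 7th lowest mean of the 20218 features in liver. Amy1, the salivary and liver amylase, had -1.07, -0.95, -1.07, -0.90, -0.92 and -1.02. These 6 values lay close together, and array 2 was in the middle of them. The mean was -0.99 ± 0.07 (SD, n = 6), at rank 60 from the lowest.

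Prss2, a trypsinogen, had liver log2 ratios of -1.34, -0.07, -0.94, -0.77, -1.16 and -1.32. It was low on all arrays but array 2, which lay near 0. The mean was -0.93 ± 0.48 (SD, n = 6), at rank 69. Prss2 belongs to a family of near-identical trypsinogen genes, so the spot may measure several of them. Cpb1, a procarboxypeptidase that trims basic residues, had -1.19, 0.16, -0.74, -0.62, -0.66 and -0.36. Again array 2 was the highest, here above 0. The mean was -0.57 ± 0.45 (SD, n = 6), at rank 363. Without array 2 the means were -1.86 for Amy2, -1.10 for Prss2, -0.72 for Cpb1.

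The other 5 genes had no such liver ratio. Cpa1, the procarboxypeptidase that trims aliphatic and aromatic residues, ranged from -0.60 to 0.30 with a mean of -0.22 ± 0.35. It was the lowest of the 5 and lay at rank 2743, well above Cpb1. Ctrb1, which encodes chymotrypsinogen, had a mean of -0.10 ± 0.29, from -0.48 to 0.26. Cela1 had 0.01 ± 0.21, from -0.37 to 0.18. Cela2a had -0.11 ± 0.13, from -0.23 to 0.10 (SD, n = 6 for each). Cel, which splits cholesterol and other esters in the presence of bile salts, had -0.65, 1.66, -0.12, -0.08, 0.01 and -0.38. Array 2 stood far above the others, and the mean of 0.07 ± 0.82 became -0.24 without it.

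**Figure D1:**
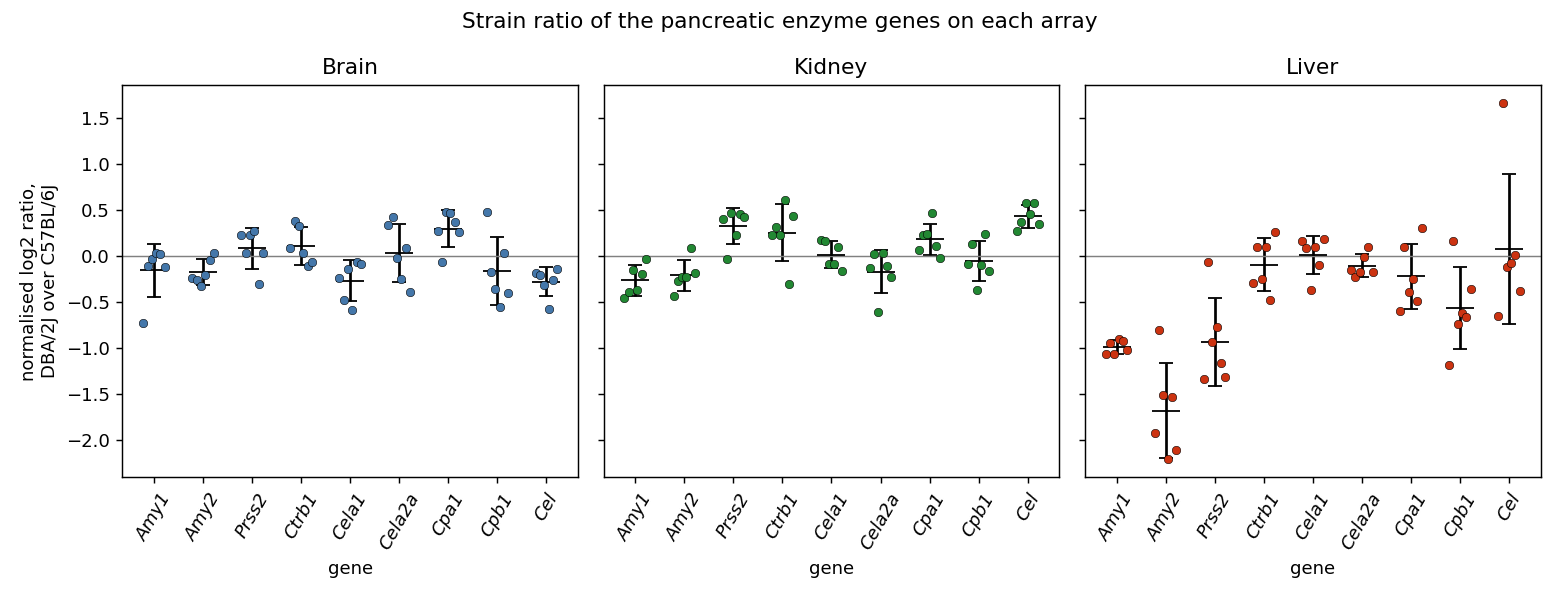
Normalised log2 ratios of DBA/2J over C57BL/6J (y axis) for the 9 measured enzyme genes (x axis) in brain, kidney and liver. Each point is 1 array, and the horizontal line and bar give the mean and SD of 6 arrays. In liver the 6 points of Amy1 lie between -1.07 and -0.90 and those of Amy2 between -2.21 and -0.81, while in brain and kidney most points of both lie nearer to 0.

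The spread over the liver arrays differed between the amylases. Array 2 was the highest of 6 for 4 of the 9 genes (Amy2, Prss2, Cpb1 and Cel) and for 12 of 33 other acinar genes, beside 20.1% of all features. Amy1 did not share that pattern. Over the 6 liver arrays Amy2 was correlated with Cel (Pearson's r = 0.853), Prss2 (0.727) and Cpb1 (0.585), less with Cpa1 (0.102) and Amy1 (0.0925), and negatively with Ctrb1 (-0.162), Cela2a (-0.282) and Cela1 (-0.305). The 3 genes with the highest values are those that, like Amy2, were highest on array 2. These values share the same pools and rest on few arrays, and they are given without a test.

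No other processing or left-out array brought the 4 low liver means near 0. Over all alternatives run, the mean of Amy1 was at most -0.92, and that of Amy2 lay between -1.86 and -1.54, Prss2 between -1.10 and -0.85 and Cpb1 between -0.72 and -0.44. Cela1 lay between -0.03 and 0.10.

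**Figure D2:**
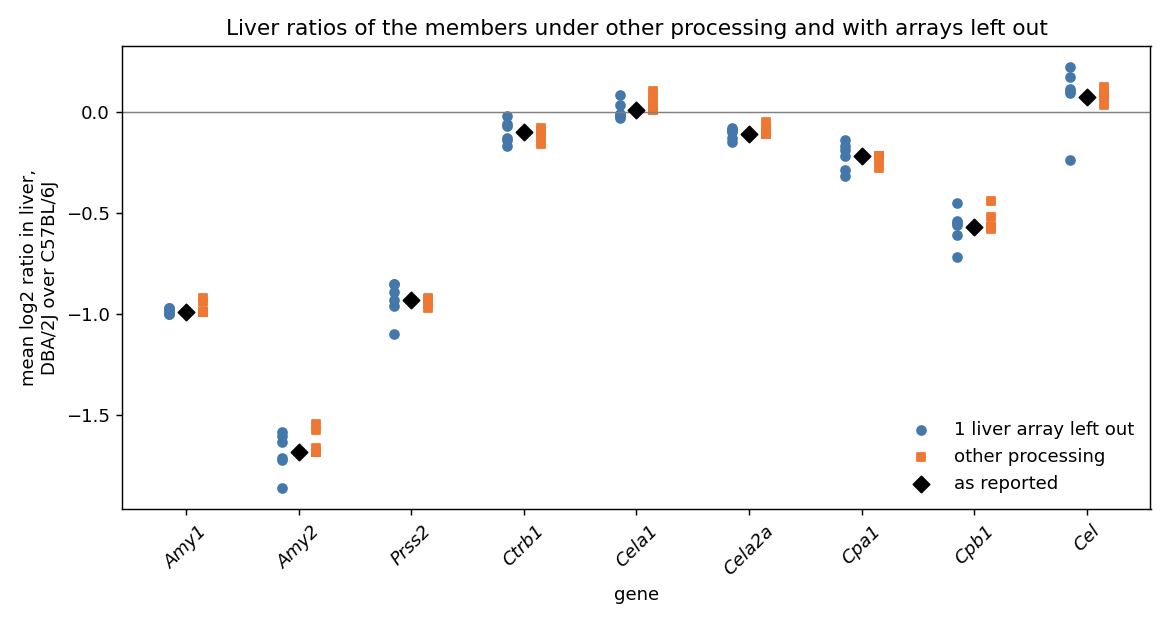
Mean log2 ratio in liver (y axis) of each enzyme gene (x axis) as reported (black diamonds), with 1 liver array left out (blue circles) and under other processing (orange squares). Amy1 stays at or below -0.92 and Amy2 lies between -1.86 and -1.54, and the mean of Cel falls to -0.24 when array 2 is left out.

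Other genes of pancreatic acinar cells were mostly not lower in liver. Of 42 listed, 33 were on the arrays, and 6 of them were lower in DBA/2J, 2 were higher and 25 did not pass the test (limma, adjusted over all features). Over all features 12.1% were past the threshold as lower and 10.8% as higher. The median log2 ratio of the 33 genes was -0.09, against 0.00 over all features. The lower ones were Reg1 (-0.54 ± 0.48, adjusted p = 0.0168) and Reg2 and Reg3a, all secreted proteins of the regenerating family, Clps (-0.37 ± 0.13, 0.00301), the cofactor of pancreatic lipase, the chymotrypsin-like Ctrl (-0.34 ± 0.19, 0.00985), and Cckar, the receptor through which cholecystokinin drives enzyme release. Reg1 was close in size to Cpb1 (-0.57 ± 0.45), and the rest of the 6 differed less between the strains. Reg1 too was highest on array 2, at 0.24. Without loess Reg1 was at -0.68 and Cpb1 at -0.52, and with 1 loess per array they were at -0.62 and -0.44. Most of these 6 differed outside liver too. Clps (-0.25 ± 0.14, limma adjusted p = 0.0392) and Cckar (-0.25 ± 0.17, 0.0497) were lower in brain. In kidney Clps, Reg1, Reg2 and Reg3a were lower, and Ctrl was higher. The higher ones in liver were Aqp8 (0.81 ± 0.15, 2.75e-05), a water channel that hepatocytes also make, and the trypsinogen Prss1 (0.20 ± 0.10, 0.0437). The trypsinogens Prss3 (0.00 ± 0.32, limma adjusted p = 0.999) and Try4 (-0.10 ± 0.18, 0.383) did not pass. The spots of Prss3, Try4 and Prss1 were bright in brain too, at the 87.9, 99.5 and 86.2 percentile of intensity, against 90.6, 98.6 and 96.5 in liver. What these spots measure in liver is therefore uncertain. Over the 33 genes the median percentile was 58.9 in liver, 56.4 in brain and 62.4 in kidney, and Cckar was dim in liver at 3.69. With an array left out the number of lower genes was between 2 and 7. It was 2 without array 1 or array 4, 3 without array 3 or array 6, and 7 without array 2, and it was 2 without loess.

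**Figure D3:**
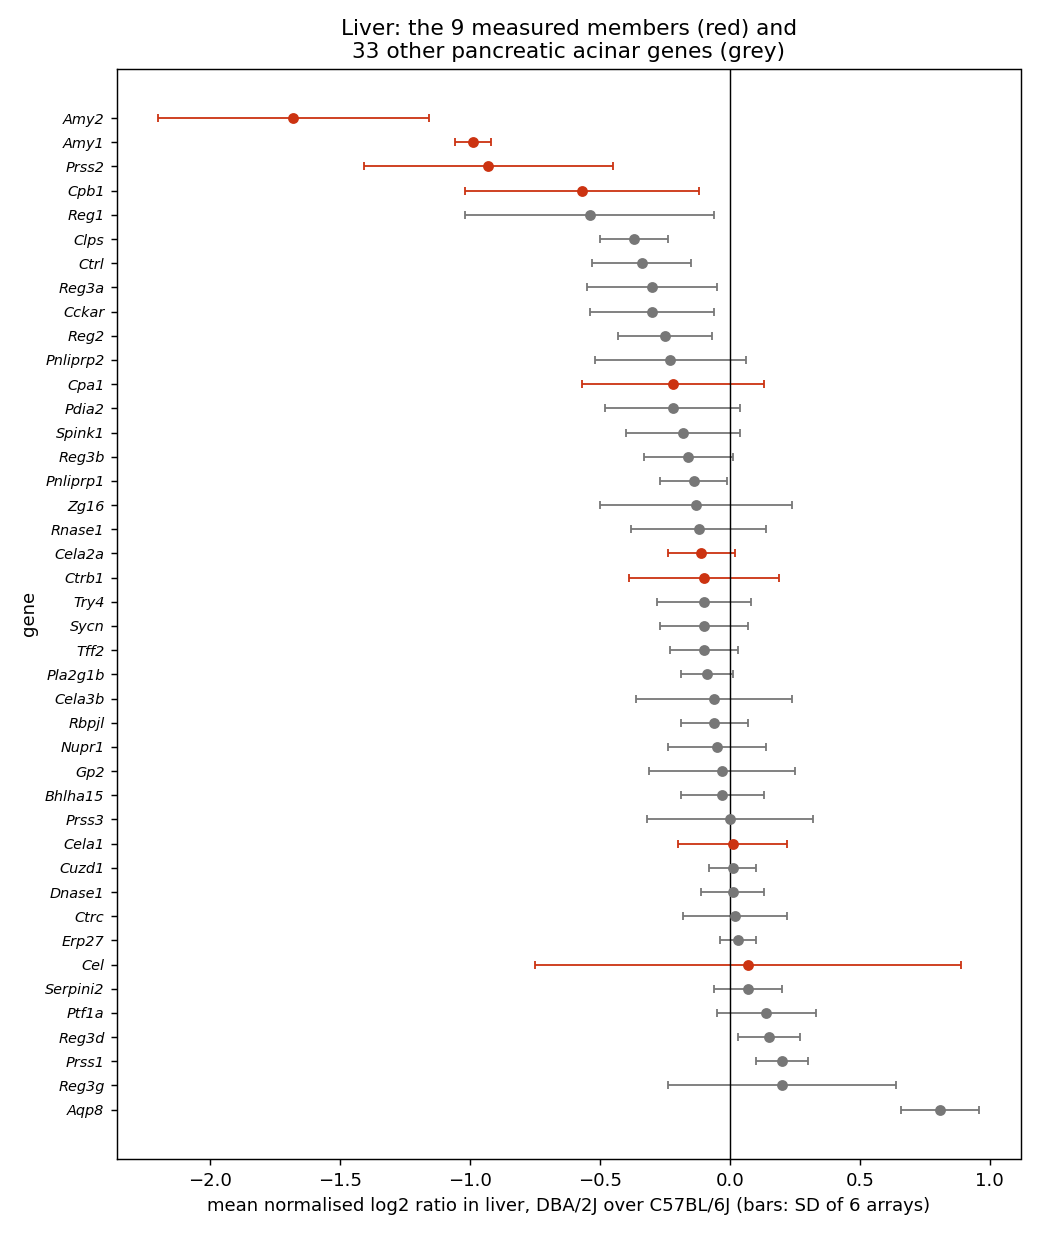
Mean log2 ratio in liver (x axis) of the 9 measured enzyme genes (red) and 33 other pancreatic acinar genes (grey), ordered by the mean (y axis), with bars for the SD of 6 arrays. Amy2, Amy1, Prss2 and Cpb1 are the 4 lowest, Reg1 follows at -0.54, and Aqp8 is the highest at 0.81.

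Markers of other tissues that could be carried along with liver showed few differences of this size. The shares over all liver features, 10.8% higher and 12.1% lower, apply to these lists too. Of 19 islet genes on the arrays 1 was higher, 2 were lower and 16 did not pass. The lower ones were insulin, Ins2 (-0.35 ± 0.31, limma adjusted p = 0.0245), and the potassium channel subunit Kcnj11 (-0.36 ± 0.25, 0.0131). Neither was lower in liver alone. Ins2 was lower in brain (-0.24 ± 0.12, 0.0406) and kidney (-0.34 ± 0.17, 0.0024) too, and Kcnj11 in brain (-0.41 ± 0.10, 0.00419) but not in kidney (0.565). The higher one in liver was the partner of Kcnj11, Abcc8 (0.57 ± 0.27, 0.00149). Its spot was dim in liver, at the 9.76 percentile of intensity, and it was lower in brain (-0.56 ± 0.46, 0.0205). Of 15 salivary gland genes only Bpifa2, a secreted salivary protein, passed (0.44 ± 0.24, 0.00452), as higher, and the median was 0.00, while without loess 2 were higher and 2 lower. Of 13 adipose genes 2 were higher and 2 lower, and of 17 genes of intestine and stomach 5 were higher and 1 lower, with Fabp2, a fatty acid-binding protein, the highest (0.60 ± 0.14, 0.000162). The part of other tissues in the liver ratios of the amylases was not tested. In whole tissue, fewer cells of a type and less RNA per cell cannot be told apart.

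The spot intensity, both strains together, placed these genes by tissue. It is given as a percentile among all features of the tissue, and it compares spots of different sequence only roughly. Amy1 rose from the 30.1 percentile in brain through 69.3 in kidney to 92.7 in liver. Amy2 was at 66.0 in liver, 14.6 in kidney and 5.49 in brain. Ctrb1 was bright in liver at 90.8, against 23.2 in brain and 23.0 in kidney, and Cela2a was at 71.9 in liver, against 5.91 and 7.07. The liver ratios of Ctrb1 and Cela2a were -0.10 and -0.11. The source of their intensity in liver was not tested. Cpb1 was dim everywhere, at 20.5, 14.6 and 24.4, and Prss2 was at 57.7, 76.1 and 75.5. Over the 9 genes the median percentile was 71.9 in liver, against 28.3 in kidney and 20.5 in brain.

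**Figure D4:**
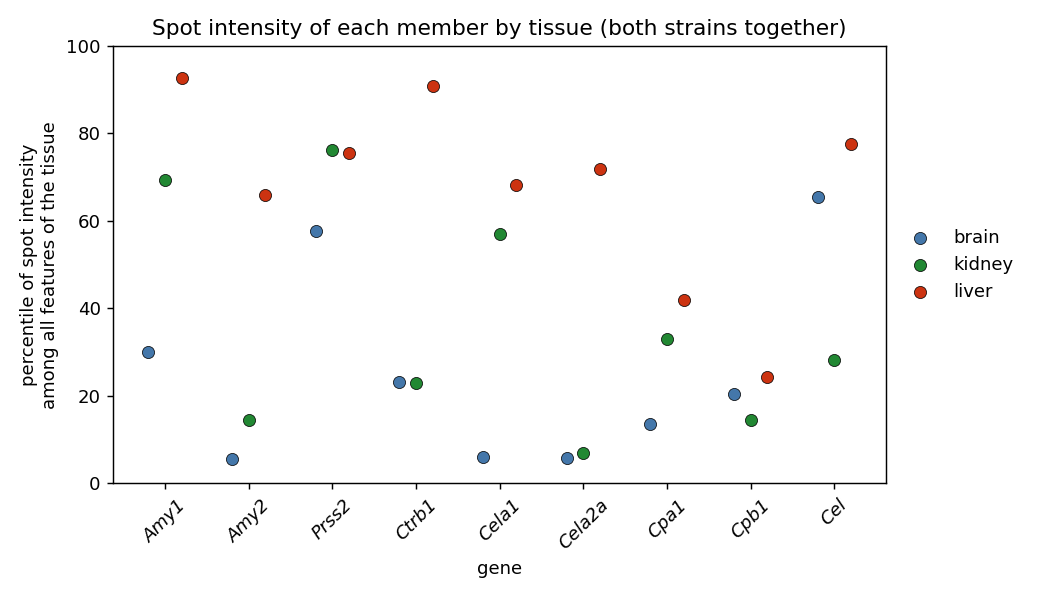
Percentile of spot intensity among all features of a tissue (y axis, from 0 to 100), both strains together, for each enzyme gene (x axis) in brain (blue), kidney (green) and liver (red). Amy1 (92.7) and Ctrb1 (90.8) are the brightest in liver, and Cpb1 is dim in all 3 tissues.

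Genes listed for starch and glycogen metabolism were lower or did not pass the test in liver. The list is wider than a single pathway and not limited to breakdown, as it includes the branching enzyme Gbe1 and the glucosidase subunit Ganab. Of 18 on the arrays, 6 were lower and 12 did not pass, with a median of -0.13, beside 12.1% of all features lower. They were G6pc (-0.77 ± 0.35, limma adjusted p = 0.000591), which releases glucose from glucose 6-phosphate, the lysosomal glucosidase Gaa (-0.66 ± 0.16, 0.000117), the liver glycogen phosphorylase Pygl (-0.63 ± 0.15, 0.000138), the glucosidase subunit Ganab (-0.47 ± 0.21, 0.00216), the branching enzyme Gbe1 and the transporter Slc37a4. In brain 6 of the 18 were lower and 12 did not pass, beside 6.16% of all features lower. In kidney 3 were higher and 6 lower, beside 19.2% and 19.1% of all features. Of the 6 genes lower in liver, Gaa, Ganab and Gbe1 were lower in brain and kidney too, so they were not particular to liver. Without loess Gaa was at 0.11 and Ganab at -0.01 in kidney. Pygl and Slc37a4 passed in neither brain nor kidney, and G6pc was higher in kidney (0.21 ± 0.12, limma adjusted p = 0.0229).

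The amylase genes lie side by side on mouse chromosome 3, as a cluster of 7 protein-coding genes. Of the closest listed neighbours outside the amylases, 4 were on the arrays, and 3 of these were lower in liver, where 12.1% of all features were, each by much less than the amylases. Col11a1, a collagen chain gene 2 genes away on one side, was at -0.32 ± 0.17 (limma adjusted p = 0.0106). Ntng1, the netrin G1 gene on the other side, was at -0.29 ± 0.14 (0.0125), and the mitochondrial carrier Slc25a24 was at -0.28 ± 0.20 (0.0235). Vav3, a guanine nucleotide exchange factor, was at -0.21 ± 0.27 (0.13) and did not pass. In kidney Col11a1 (-0.41 ± 0.13, 0.000431) and Ntng1 (-0.21 ± 0.07, 0.017) were lower, but Ntng1 was at 0.52 without loess. In brain none of the 4 passed, with adjusted p between 0.163 and 0.673. Over a wider window of 12 protein-coding genes on each side, taken after values were seen, 17 genes were measured, with 2 higher, 4 lower and 11 not past the threshold in liver and a median of -0.08. S1pr1, a lipid receptor gene as far away as Slc25a24, was at -0.03 ± 0.45 in liver (0.910).

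In kidney, 4 of the 9 enzyme genes passed the test, 2 as higher and 2 as lower, where 38.3% of all features passed, 19.2% as higher and 19.1% as lower. Amy1 had kidney log2 ratios of -0.46, -0.39, -0.15, -0.37, -0.20 and -0.03. All were below 0 and none came near its liver values. The mean of -0.27 ± 0.17 (SD, n = 6) passed in limma (adjusted p = 0.0106), but it was -0.11 with 1 loess curve per array in place of 1 per print tip (0.412), -0.02 with the intensity left unrestored, that is without the estimated common factor of each ratio (0.910), and reversed to 0.13 without loess (0.294). Amy2 had -0.44, -0.27, -0.23, -0.23, 0.08 and -0.19. Array 5 alone was above 0. Its mean of -0.22 ± 0.17 passed (limma adjusted p = 0.0311), but not without array 1, 2, 3, 4 or 6, nor with 1 loess per array, while without loess it was -0.68 (3.67e-05).

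Prss2 had kidney ratios of 0.40, -0.03, 0.46, 0.23, 0.45 and 0.42. It was higher in DBA/2J on 5 of 6 arrays, the opposite direction to its liver ratios, and the mean of 0.32 ± 0.19 passed (limma adjusted p = 0.0046). With 1 loess per array it was 0.19 (0.281). Cel had 0.27, 0.37, 0.57, 0.45, 0.57 and 0.34. It was above 0 on all arrays, with a mean of 0.43 ± 0.12 (limma adjusted p = 0.000285), but it was 0.22 with the intensity left unrestored (0.0918) and 0.00 without loess (0.980). The remaining 5 genes did not pass: Ctrb1 was at 0.25 ± 0.31 (0.0555), Cpa1 at 0.18 ± 0.17 (0.0657), Cela2a at -0.17 ± 0.24 (0.117), Cpb1 at -0.06 ± 0.22 (0.579) and Cela1 at 0.01 ± 0.14 (0.905). Of these, 4 passed under other processing. Without loess Cela2a (-0.81, 2.43e-05) and Cpb1 (-0.53, 0.000162) were lower, and they also passed with the intensity left unrestored (0.0124 and 0.0341). With 1 loess per array Ctrb1 (0.31, 0.0450) and Cpa1 (0.26, 0.0495) were higher, and Ctrb1 passed with robust eBayes too (0.0474). Without loess Ctrb1 was at -0.10 and Cpa1 at -0.01.

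Of the 33 other acinar genes in kidney, 5 were higher, 8 lower and 20 did not pass, beside 19.2% of all features higher and 19.1% lower. Their median was -0.04, or 0.12 without loess. Dnase1, a secreted nuclease that kidney also makes, was the highest (0.66 ± 0.33, limma adjusted p = 0.000219), followed by Ctrl (0.42 ± 0.09, 0.000215) and Reg3d (0.42 ± 0.16, 0.000572). Prss3 was higher too (0.30 ± 0.23, 0.0116), as was Try4 (0.20 ± 0.17, 0.0465), while Prss1 was at 0.01 ± 0.15 (0.897), so not all trypsinogens measured were higher. With 1 loess per array Prss3 was at 0.11. The lowest was Reg1 (-0.81 ± 0.56, 0.000918), which was also lower in liver. Then came Spink1, the trypsin inhibitor, at -0.55 ± 0.11 (3.88e-05), although it was 0.29 without loess, Clps at -0.50 ± 0.17 (0.000156) and Reg2 at -0.42 ± 0.14 (0.00037).

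In brain, 2 of the 9 enzyme genes passed, 1 in each direction, where 13.5% of all features did, 7.35% as higher and 6.16% as lower. Cpa1 had 0.27, -0.07, 0.47, 0.46, 0.37 and 0.26, higher on 5 of 6 arrays, with a mean of 0.29 ± 0.20 (limma adjusted p = 0.0352). Cel had -0.19, -0.21, -0.32, -0.58, -0.26 and -0.14, below 0 on all arrays, with a mean of -0.29 ± 0.16 (limma adjusted p = 0.0289). Both calls ended without array 3, 4 or 5 and without loess, so that no enzyme gene passed then, while 2 to 4 had an unadjusted p under 0.05. The call of Cpa1 also ended without array 6 and with robust eBayes (0.0624), and that of Cel without array 2. With the intensity left unrestored neither passed (0.101 for Cpa1 and 0.0737 for Cel), but Amy2 (-0.29, 0.0366) and Cela1 (-0.38, 0.0317) did, as lower.

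The amylases did not pass in brain, apart from that setting for Amy2. Amy1 had -0.73, -0.11, -0.03, 0.03, 0.02 and -0.12, where array 1 stood apart, and a mean of -0.16 ± 0.29 (limma adjusted p = 0.311), or -0.04 without array 1. Amy2 had -0.24, -0.26, -0.33, -0.21, -0.05 and 0.03 and a mean of -0.18 ± 0.14 (limma adjusted p = 0.126), or -0.01 with 1 loess per array. Both were dim there. Cela1 was at -0.27 ± 0.22 (0.0544), Cpb1 at -0.17 ± 0.37 (0.366), Ctrb1 at 0.10 ± 0.20 (0.436), Prss2 at 0.08 ± 0.22 (0.579) and Cela2a at 0.03 ± 0.31 (0.884). Of the 33 other acinar genes in brain 1 was higher, 6 were lower and 26 did not pass, beside 7.35% of all features higher and 6.16% lower. Gp2, a granule membrane glycoprotein, was the lowest (-1.34 ± 0.74, 0.00221), and the higher one was Prss1 (0.41 ± 0.35, 0.0301).

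Differences of the strain ratio between tissues were taken from a fit over all 18 arrays. The strain ratio of Amy2 in liver minus that in brain was -1.51, and minus that in kidney -1.47 (log2 scale, SE 0.16 for both). For Amy1 the differences were -0.83 and -0.72 (SE 0.11). The liver arrays of both amylases overlapped with those of neither other tissue, as was the case for 3.83% of all features against brain and 8.35% against kidney. For Prss2 the differences were -1.01 and -1.26 (SE 0.16), and the liver arrays did not overlap with those of kidney but overlapped with those of brain. For Cpb1 they were -0.40 and -0.51 (SE 0.18), with overlap. These are descriptions, with no test, because the liver ratios chose the genes. Past the threshold over all features were 7.85% for liver minus brain and 16.6% for liver minus kidney.

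Kidney and brain could be compared with a test. Cel was the only one of the 9 genes to pass, where 21.4% of all features did. Its ratio was higher in kidney than in brain by 0.71 (SE 0.23, limma adjusted p = 0.0294), 0.43 against -0.29, and the arrays of the tissues did not overlap, as for 7.90% of all features. The call ended without brain array 4, kidney array 3 or kidney array 5. It also ended without loess, where the difference was 0.22 (0.458), and with 1 loess per array, where it was 0.62 (0.0559), with the intensity left unrestored (0.43, 0.202) and with robust eBayes (0.0678). The difference was -0.11 for Amy1 (0.521), -0.04 for Amy2 (0.891), 0.25 for Prss2 (0.29) and 0.28 for Cela1 (0.0748), and these did not pass. Cela1 did pass with the intensity left unrestored (0.49, 0.0292) or without loess (0.55, 0.0165). Cela2a, at -0.20 as reported (0.277), passed without loess (-0.63, 0.00409).

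The genes whose ratios followed those of the amylases most closely over the 18 arrays were not pancreatic enzymes. For Amy2 they were Ten1 (Pearson's r = 0.959), C730007P19Rik (0.938), Cyp3a13 (0.938), Sprr1b (0.934) and Chp1 (0.932). Their mean liver ratios were between -1.35 for C730007P19Rik and -0.60 for Sprr1b. For Amy1 they were Rpl14 (0.913), Foxq1 (0.912), Sprr1b (0.909), Sqstm1 (0.905) and 4933427E13Rik (0.901). Among the enzyme genes Amy2 was nearest to Prss2 (0.892), then Amy1 (0.847), Cpa1 (0.643) and Cpb1 (0.639). It was far from Cela1 (-0.319) and Cela2a (0.00952). Amy1 was at 0.767 with Prss2 and at -0.0444 with Cel. Such a value mainly reflects the step between liver and the other tissues, which the choice of genes fixed, and it is given as a description.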

How the data were processed

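Pooled RNA of both strains was compared in 3 tissues on 18 two-colour arrays. The labels name Spot for image analysis and print-tip lowess in limma for normalisation, and state no version or background correction. The deposited log2 ratios were not centred (array medians from -1.65 to 0.16) and correlated with intensity by up to 0.717, and 100.0% equalled the log2 of 1 whole number over another (tolerance 1e-12), so they were treated as raw. Of 23040 spots, 1275 had a value of 0 on every array and were left out, and 21765 were used.

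The whole numbers were recovered by continued fractions (largest 65535), with their common factor estimated from the other arrays (assumed SD 0.4 on the log2 scale). Each array was normalised by print-tip loess in limma 3.58.1 on R 4.3.3 (span 0.3, 4 iterations, and 48 print-tip blocks with 480 spots each), using an intensity fitted over the tissue's arrays. Gene symbols came from the platform annotation, updated through RefSeq (GRCm38.p6) by Entrez identifier for 15964 spots. Of the spots, 16642 had 1 symbol, 134 had several and 4989 had none. Spots of 1 symbol were averaged.

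Each tissue's mean ratio was tested against 0 with lmFit and eBayes, tissues were compared in a fit of all 18 arrays, and p-values were Benjamini-Hochberg adjusted over 20218 features (threshold 0.05). On simulated data over these features, changes of 1.5-fold were recovered in 83%, 90% and 91% of cases in brain, kidney and liver, and 2-fold changes in 98%, 99% and 98%. False calls numbered 6, 9 and 14. In each tissue 100 features were changed per fold, with independent normal noise for each spot. The data are less simple, so these shares need not hold for them.

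The genes and gene lists were chosen with earlier results of these data known. Named are all 9 genes measured, up to 4 genes each way per list and tissue among those past the threshold, and the 5 genes most like each amylase. The trypsinogens Prss3 and Try4, Prss1 in kidney, Vav3, S1pr1 and genes named beside a short count were named after their values were seen. The same holds for brain and kidney values given beside genes named for liver. Alternatives were median centring without loess, 1 loess per array, the intensity left unrestored (no common factor), each spot on its own, dim or saturated features left out, robust eBayes, a replicate block, and each array left out in turn.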

Additional observations from a re-analysis of the deposited data

Results flagged for a closer look

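Single arrays stood far from the other 5 of their tissue (Dixon's test) for 8 of 98 combinations of a gene and a tissue, where chance gives about 1 in 20. For the enzyme genes these were Amy1 on brain array 1, at -0.73 against -0.12 to 0.03 on the others, and Cel on liver array 2, at 1.66 against -0.65 to 0.01. In liver, G6pc on array 2 was at -1.45 and Ganab on array 5 at -0.07. In kidney, Fxyd2 on array 6 was at 0.37, Gyg on array 5 at 0.53 and Slc25a24 on array 1 at -0.37, the last against 0.01 to 0.04 on the others. In brain, Col11a1 on array 5 was at 0.35.

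The strain ratio of Cel differed between kidney and brain by a test of the difference itself, but not under all processing. It was higher in kidney than in brain by 0.71 (SE 0.23, limma adjusted p = 0.0294), above 0 on 6 of 6 kidney arrays and below 0 on 6 of 6 brain arrays. The call ended without loess (limma adjusted p = 0.458), with 1 loess per array (0.0559), with the intensity left unrestored (0.202) and with robust eBayes (0.0678). Cel was dim in kidney, at the 28.3 percentile.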

How the results depend on the processing

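In liver, all 116 values of the enzyme genes under alternatives stayed within 1 SD of the reported means. Of these, 5 turned sign, all for Cela1 or Cel. The outcome was largely fixed in advance. Leaving out a single array can shift a mean by only a part of its SD. Robust eBayes, dim or saturated features left out, and each spot on its own leave the mean of a gene with 1 spot unchanged. Only the other normalisations could move a mean further, so many of the 116 values could not leave that range. In brain 94 of 110 and in kidney 90 of 111 kept their side of the threshold, but 4 of these in each tissue, none past it, turned sign, and Amy1 in kidney reversed to 0.13 without loess. The number of enzyme genes past the threshold in brain, 2 as reported, was 0 without loess (2 at an unadjusted p under 0.05), 1 without dim features, 1 with robust eBayes, and from 0 to 3 with an array left out. In kidney it was 2 without dim features, where 4 were reported. Without loess the features past the threshold numbered 13113 in kidney (7745 as reported), 7113 for kidney minus brain (4332), 830 for liver minus brain (1587) and 9288 for liver minus kidney (3354). Without dim features, of which fewer were tested, they numbered 1773 in brain (2732), 4610 in kidney and 2830 for kidney minus brain. For liver minus brain they numbered 902 with 1 loess per array and 774 with intensity left unrestored. With an array left out they ranged from 1310 to 3276 in brain and from 2922 to 4569 in liver (4623). The cause was not tested. Same-numbered arrays of 2 tissues correlated by -0.231 to 0.16 in their deviations, and the same-numbered array was the closest one in some cases but not in most. The numbers were therefore not used to pair the arrays, but such values cannot exclude a pairing. With a replicate block the features past the threshold numbered 4042, 1433 and 3126 for the 3 differences, in the order kidney minus brain, liver minus brain and liver minus kidney, and the adjusted p of Cel for kidney minus brain was 0.0259. Signal limits the genes below the 33.3 percentile of intensity: in brain all 9 but Prss2 and Cel, in kidney all but Amy1, Cela1 and Prss2, and in liver Cpb1. Cpa1 in brain and Amy2 and Cel in kidney, past the threshold as reported, are among them.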
